A study of Glycine max with 12 samples.

Results

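PRP3 is a proline-rich protein gene of soybean on chromosome 11, and the transcripts described here are the long non-coding RNAs (lncRNAs) that the deposited table places at that gene. They were taken as every lncRNA whose host gene name is exactly PRP3, which gave 5 of the 11072 lncRNA transcripts listed. All 5 are isoforms of the assembled gene MSTRG.6672 and carry the class code x, which marks a transcript lying opposite the exons of a known gene. PRP3 was taken up because one of them, MSTRG.6672.4, had passed the thresholds of the study in all 4 comparisons, as 9 of 9142 tested lncRNAs (0.0984%) had. These were a log2 fold change beyond 1 in either direction with p at or under 0.05 before adjustment. The test here was limma on FPKM, not the edgeR test of the study, so passing here is not a call made by the study. Because MSTRG.6672.4 was chosen by its passing, its differences are given as a description with standard errors and without p-values. The same holds for the other isoforms that share its position.

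Young soybean pods of 2 materials were compared at 2 stages, with 3 libraries in each of 4 groups. MT72 is a low-linolenic acid mutant raised by treatment with ethyl methanesulfonate and kept over several generations, and JN18 is the high-oil variety used as its wild-type control. The groups were MT_40 (libraries MT_4, MT_5 and MT_6) and MT_30 (MT_7, MT_8 and MT_9) for MT72 at 40 and 30 d after flowering, and JN_40 (JN_4, JN_5 and JN_6) and JN_30 (JN_7, JN_8 and JN_9) for JN18 at the same ages. Total RNA was freed of ribosomal RNA and sequenced with a strand-specific kit as paired reads of 150 bases. MT72 is a single mutant material, so that any difference between the materials belongs to its whole background and not to a named mutation, and how many plants stood behind a library is not stated.

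Proline-rich proteins are structural proteins of the plant cell wall. They are built from short repeated motifs rich in proline, are secreted, become insoluble by cross-linking in the wall, and in soybean their genes are known to be expressed in an organ- and stage-specific way in seedlings, stems and seed coats. An antisense lncRNA is transcribed from the strand opposite a gene, and such RNAs can affect the transcription, the stability or the processing of the sense messenger, or have no known effect. The table names the host by its symbol only. RefSeq annotation of Glycine_max_v4.0 lists PRP3 as a protein-coding gene next to LOC100803102 and LOC102669486, and no product stands in that list. The messenger RNA of PRP3 was not analysed here. The kit keeps the strand, but no source used here gives the strand setting of the mapping and assembly, so reads of the PRP3 messenger and of its antisense RNA cannot be told apart with certainty. Repeats shared with other proline-rich protein genes add the same uncertainty, because the treatment of reads that match several places is not given either. A pod is also a mixture of pod wall and seeds, and in such bulk samples fewer cells of a type and less RNA per cell cannot be told apart.

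The 5 PRP3 lncRNAs are near-copies of one transcript. All lie on the minus strand of chromosome 11 and have 2 exons, with starts within 3 bases of each other and ends within 12 bases, on the coordinates of the authors' genome, whose build no source used here gives. MSTRG.6672.2, MSTRG.6672.3 and MSTRG.6672.4 share the span 12644195 to 12644559. MSTRG.6672.5 runs from 12644197 to 12644554 and MSTRG.6672.6 from 12644198 to 12644547. What sets them apart is the stretch left out between the exons, which measured 30 bases in MSTRG.6672.2, 45 in MSTRG.6672.3, 54 in MSTRG.6672.4, 51 in MSTRG.6672.5 and 66 in MSTRG.6672.6. Each of these gaps is a whole multiple of 3 bases. The transcripts were accordingly 335, 320, 311, 307 and 284 bases long, in the order just given.

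Gaps this short were uncommon among antisense lncRNAs. Of the 234 antisense lncRNAs with 2 exons, 39 (16.7%) had a gap of at most 66 bases, and 5 of the 39 were those of PRP3. The median gap of the 234 was 1682.5 bases, with quartiles at 115.5 and 8739 bases. The other 34 short-gap antisense lncRNAs came from 34 different loci, so that no other locus held more than 1 of them. Of these 34 gaps, 14 (41.2%) were multiples of 3, against 509 of all 1504 lncRNAs with 2 exons (33.8%). Short gaps made up 27 of 74 among intronic lncRNAs (36.5%) and 10 of 493 among intergenic ones (2.03%). Among these 39, the 3 highest mean levels belonged to PRP3, with 13.1 FPKM for MSTRG.6672.2, 10.6 FPKM for MSTRG.6672.5 and 7.00 FPKM for MSTRG.6672.4 over the 12 libraries, and the strongest of the other 34, MSTRG.29038.1 at LOC100500027, averaged 5.67 FPKM. FPKM counts the fragments assigned to a transcript, scaled by its length and by the depth of the library.

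**Figure D1:**
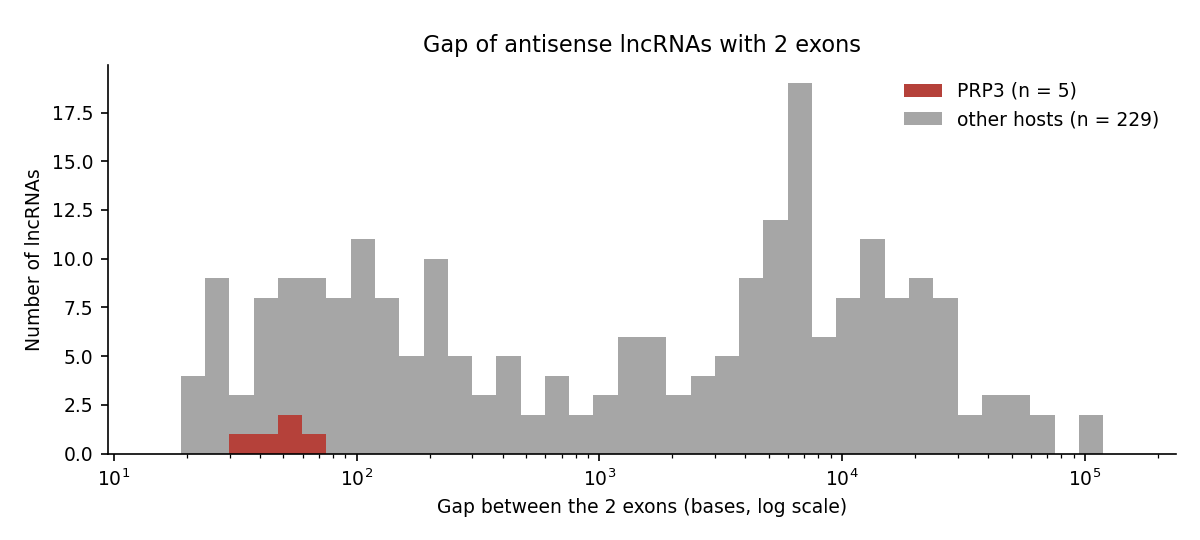
Number of antisense lncRNAs with 2 exons (vertical axis) by the length of the gap between the exons in bases (horizontal axis, log scale), for PRP3 (red, n = 5) and for other host genes (grey). The PRP3 gaps of 30 to 66 bases lie at the short end, under the lower quartile of 115.5 bases.

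The coding potential scores of the PRP3 lncRNAs were on the higher side for one of the 2 predictors used by the authors. Their CPC score ranged over 0.0522 to 0.0883, above 77.5% of all listed lncRNAs for the lowest and 86.7% for the highest, and the median of the table was 0.0182. By the other predictor they were on the lower side, with CNCI scores of -0.246 to -0.0172, above 2.59% of all listed lncRNAs for the lowest and 42.7% for the highest, where the median of the table was -0.0041. The authors had kept only transcripts without predicted coding potential, so both scores describe transcripts already filtered on them.

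The depth of the 12 libraries, inferred from coverage and FPKM, lay between 10.0 and 12.3 Gb of aligned bases. By this depth 3 reads on MSTRG.6672.4 correspond to 0.118 to 0.144 FPKM. Over the 12 libraries it is more than the total of raw reads stated in the paper would give. The level of 3 reads and the estimated reads carry this uncertainty. JN_9 stood apart from the other libraries. It listed 2847 transcripts at 0, against 2074 to 2360 in the other libraries, and the median FPKM of the antisense lncRNAs at other loci was 0.439 in JN_9, against 0.566 to 0.920 elsewhere. Of the lncRNAs above 3 FPKM in both other JN_30 libraries, JN_9 listed 8 of 202 (3.96%) at 0, and the same share was 0.362% to 2.19% in the other 11 libraries. Its depth was not low, at 12.2 Gb. The main differences that rest on JN_9 are given with and without it.

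Different PRP3 isoforms were listed in different libraries. MSTRG.6672.2 was above 0 in 11 of the 12 libraries and MSTRG.6672.4 in 11, but MSTRG.6672.5 in only 5, MSTRG.6672.6 in 3 and MSTRG.6672.3 in MT_4 alone. In the 11 libraries with any PRP3 signal, 24 of 55 isoform values (43.6%) stood at 0. Among 66 other loci with at least 3 lncRNA isoforms and a mean summed level of at least 1 FPKM, this share ranged over 0 to 81.1% with a median of 11.1%, and 5 loci reached or passed that of PRP3. The dominant isoform changed within groups as well. It was MSTRG.6672.4 in MT_4, MSTRG.6672.5 in MT_5 and MSTRG.6672.2 in MT_6, and in JN_30 it was MSTRG.6672.2 with 98.7% of the PRP3 signal in JN_7 and MSTRG.6672.6 with 93.7% in JN_8. How the reads of this region were divided among isoforms thus differed between replicates of one group, and its part in the differences of single isoforms was not tested. For this reason the summed FPKM of the 5 isoforms was followed beside each of them, a choice made after the isoform values had been seen.

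**Figure D2:**
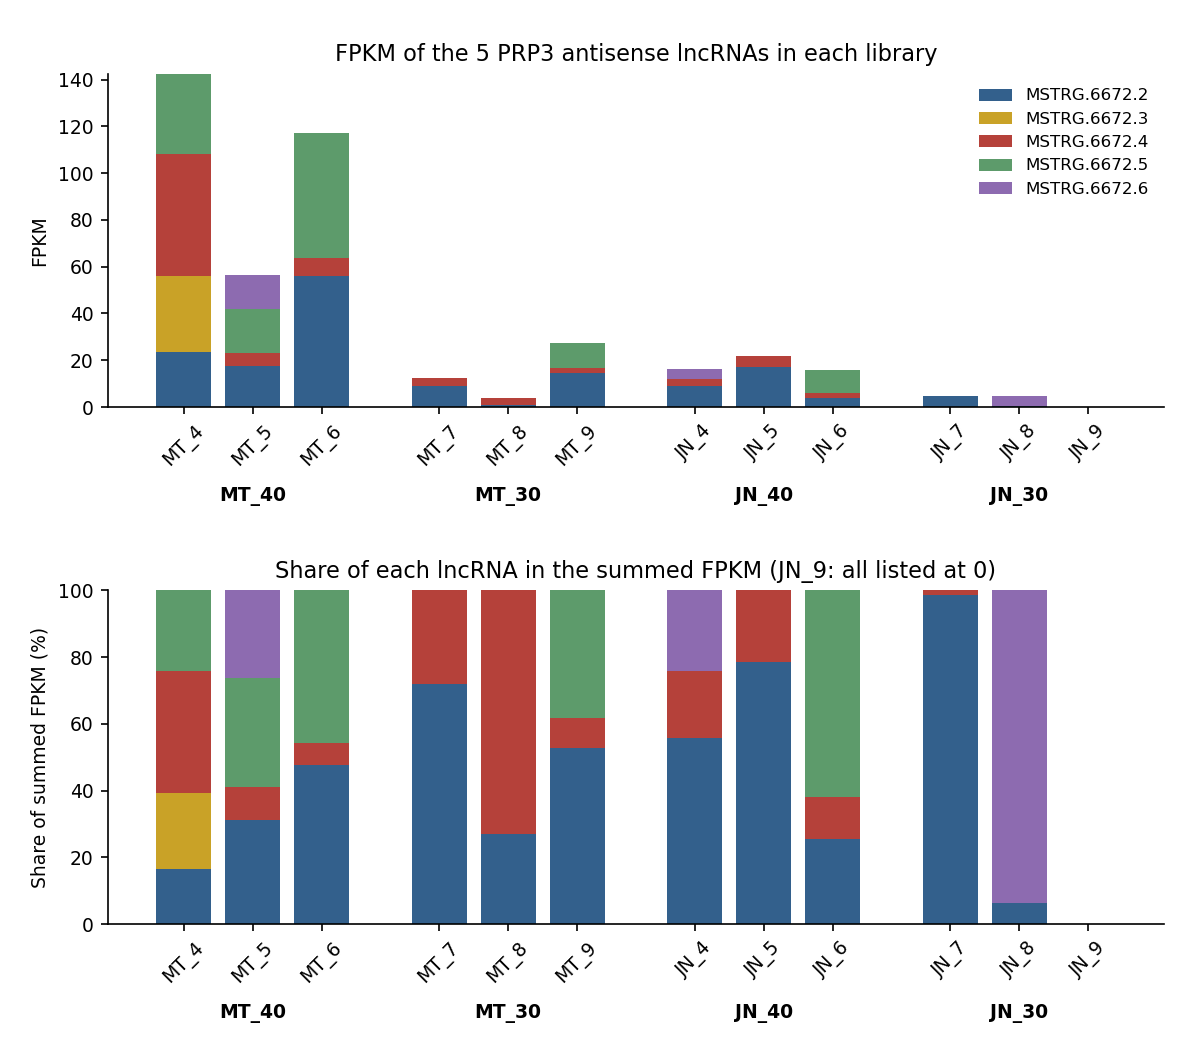
FPKM of the 5 PRP3 antisense lncRNAs stacked by library (upper panel) and the share of each in the summed FPKM in percent (lower panel), with the libraries of MT_40, MT_30, JN_40 and JN_30 from left to right. The tallest stacks are those of MT_4 and MT_6, no PRP3 lncRNA was above 0 in JN_9, and the colours that fill the stacks differ between libraries of the same group.

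MSTRG.6672.4, with a gap of 54 bases, was the isoform that passed the thresholds everywhere. It had 52.0, 5.72 and 7.61 FPKM in MT_40, against 3.52, 2.72 and 2.44 FPKM in MT_30. In JN18 it had 3.21, 4.68 and 2.01 FPKM in JN_40, against 0.0638, 0.00436 and 0 FPKM in JN_30. MT_4 was far above every other library, JN_30 was near 0 throughout, and the levels of MT_30 and JN_40 overlapped. The group means were 21.8 ± 26.2 FPKM in MT_40, 2.89 ± 0.561 FPKM in MT_30, 3.30 ± 1.34 FPKM in JN_40 and 0.0227 ± 0.0356 FPKM in JN_30 (SD, n = 3 each). Without MT_4 the MT_40 mean was 6.66 ± 1.33 FPKM (SD, n = 2). All 3 JN_30 values lay under the level of 3 reads.

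MSTRG.6672.4 formed a changing part of the PRP3 signal. Its share of the summed FPKM was 36.4%, 10.1% and 6.49% in MT_40 and 27.9%, 73.1% and 8.96% in MT_30. It was 20.0%, 21.5% and 12.8% in JN_40, against 1.31% and 0.08997% in JN_7 and JN_8 of JN_30. The near-absence of MSTRG.6672.4 in JN_7 and JN_8 therefore went with other PRP3 isoforms in the same libraries. These were mainly MSTRG.6672.2 at 4.80 FPKM in JN_7 and MSTRG.6672.6 at 4.54 FPKM in JN_8.

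MSTRG.6672.2, with the shortest gap, exceeded 0.1 FPKM in more libraries than any other PRP3 isoform, 11 of 12, against 9 for MSTRG.6672.4. It had 23.5, 17.6 and 56.0 FPKM in MT_40, against 9.10, 0.999 and 14.4 FPKM in MT_30. In JN_40 it had 8.98, 17.1 and 3.996 FPKM, against 4.80, 0.299 and 0 FPKM in JN_30. The MT_40 libraries were above all others, a pattern whose share over all tested lncRNAs was not counted. JN_40 and JN_30 overlapped through JN_6 and JN_7. By its mean of 13.1 FPKM it ranked 12 among the 271 antisense lncRNAs and 88 among all lncRNAs.

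MSTRG.6672.5 was a strong isoform of MT_40. It had 34.5, 18.4 and 53.6 FPKM there, against 0, 0 and 10.4 FPKM in MT_30. JN_40 had 0, 0 and 9.71 FPKM, and it was listed at 0 in the 3 JN_30 libraries. The MT_40 libraries did not overlap with any other group, a pattern whose share over all tested lncRNAs was not counted. MSTRG.6672.6 was scattered, with 14.9 FPKM in MT_5, 3.88 FPKM in JN_4, 4.54 FPKM in JN_8 and 0 elsewhere, so that its groups overlapped in every comparison. MSTRG.6672.3 had 32.6 FPKM in MT_4 and 0 in the other 11 libraries, and it did not enter the tests because it failed the filter of more than 0.1 FPKM in at least 3 libraries, which the other 4 isoforms passed.

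The summed PRP3 antisense signal was highest in MT_40. It was 143, 56.6 and 117 FPKM in MT_40, against 12.6, 3.72 and 27.2 FPKM in MT_30. In JN_40 it was 16.1, 21.8 and 15.7 FPKM, against 4.87, 4.85 and 0 FPKM in JN_30. Each MT_40 library was above all 9 others, JN_40 was above JN_30, and MT_30 overlapped with both groups of JN18. How many of all tested lncRNAs stood above all other libraries in MT_40 was not counted. The shares were 12.5% for MT_40 above MT_30, 6.84% for MT_40 above JN_40 and 5.62% for JN_40 above JN_30, or 10.4% without JN_9. These sums rest on 3488, 1265 and 2910 estimated reads in MT_40 and 308, 91.5 and 655 in MT_30. They rest on 418, 563 and 348 estimated reads in JN_40 and 118, 93.2 and 0 in JN_30. The sum made up 0.161% to 0.411% of all lncRNA FPKM in MT_40 and at most 0.0698% in any other library. The group means followed the order MT_40 at 105 ± 44.2 FPKM, JN_40 at 17.9 ± 3.42 FPKM, MT_30 at 14.5 ± 11.9 FPKM and JN_30 at 3.24 ± 2.80 FPKM (SD, n = 3 each), in which JN_40 and MT_30 did not differ beyond their spread. Without JN_9 the JN_30 mean was 4.86 ± 0.0152 FPKM (SD, n = 2).

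**Figure D3:**
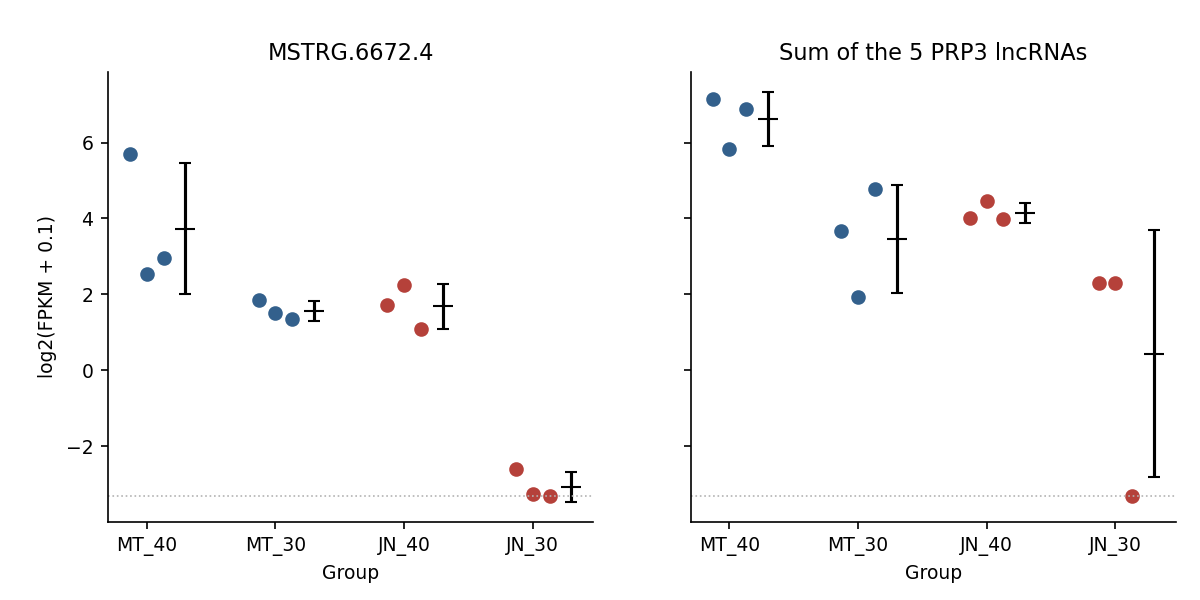
Level of MSTRG.6672.4 and of the summed PRP3 lncRNAs as log2(FPKM + 0.1) on the vertical axis, one point per library and a line at each group mean, for MT_40, MT_30, JN_40 and JN_30. MSTRG.6672.4 separates JN_30 from the other groups most widely, and the sum separates MT_40 from the others.

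The stage comparison asked how the young pod changed from 30 to 40 d after flowering within each material. In MT72 the antisense signal at PRP3 was higher at 40 d. Of the 4 PRP3 lncRNAs tested, MSTRG.6672.2, MSTRG.6672.4 and MSTRG.6672.5 were higher in every MT_40 library than in any MT_30 library, a pattern that 12.5% of all tested lncRNAs showed. At the thresholds of the study MSTRG.6672.4 and MSTRG.6672.5 passed, both upwards, where 14.2% of all tested lncRNAs passed in either direction and 6.81% upwards. MSTRG.6672.5 entered the tests only through MT_40, because outside that group it exceeded 0.1 FPKM in MT_9 and JN_6 alone. Its pass and its separation in MT_40 are therefore description only. The log2 difference, MT_40 over MT_30 on log2(FPKM + 0.1), was 2.16 for MSTRG.6672.4 (SE 0.65), and 1.18 (SE 0.42) without MT_4. It was 2.44 for MSTRG.6672.2 (SE 1.21), or 1.31 without MT_8, and 6.11 for MSTRG.6672.5 (SE 1.78). The sum had a log2 difference of 3.16 (SE 1.18) and a ratio of mean FPKM of 7.26, which was 5.98 without MT_4.

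In JN18 the signal was also higher at 40 d, but a single isoform separated the groups. MSTRG.6672.4, whose passing chose PRP3, was higher in every JN_40 library than in any JN_30 library. The same held for 5.62% of all tested lncRNAs, or 10.4% without JN_9. MSTRG.6672.2 and MSTRG.6672.4 passed the thresholds of the study upwards, where 10.6% of all tested lncRNAs passed in either direction and 5.49% upwards. The log2 difference of MSTRG.6672.4, JN_40 over JN_30, was 4.75 (SE 0.65), a value that depends on the pseudocount because JN_30 lay under it. MSTRG.6672.2 differed by 3.89 on the log2 scale (SE 1.21), and leaving out 1 library moved this between 2.62 (SE 1.14) without JN_9 and 5.43 without JN_7. MSTRG.6672.5 differed by 2.21 (SE 1.78), which rests on JN_6 and was 0.00 without it, and MSTRG.6672.6 by -0.07 (SE 1.98). The summed signal did not overlap between JN_40 and JN_30 either, a pattern with the same share of 5.62%, or 10.4% without JN_9. Its log2 difference was 3.72 (SE 1.18), and 1.84 (SE 0.64) without JN_9. The ratio of mean FPKM of the sum was 5.52, and 3.68 without JN_9.

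The comparison of materials asked how the mutant differed from its control at each age. At 40 d MSTRG.6672.2, MSTRG.6672.4 and MSTRG.6672.5 were higher in every MT_40 library than in any JN_40 library, as 6.84% of all tested lncRNAs were. MSTRG.6672.4 and MSTRG.6672.5 passed the thresholds of the study upwards, where 5.85% of all tested lncRNAs passed in either direction and 3.4% upwards. Here too MSTRG.6672.5 was tested only because of its MT_40 values. The log2 difference, MT_40 over JN_40, was 2.04 for MSTRG.6672.4 (SE 0.65), and 1.06 (SE 0.42) without MT_4. It was 1.73 for MSTRG.6672.2 (SE 1.21) and 6.14 for MSTRG.6672.5 (SE 1.78). The summed signal differed by 2.47 on the log2 scale (SE 1.18), and its mean FPKM was 5.90 times as high in MT_40 as in JN_40, or 4.86 times without MT_4.

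At 30 d the isoform and the sum gave different pictures. MSTRG.6672.4, whose passing chose PRP3, was higher in every MT_30 library than in any JN_30 library. The same held for 8.94% of all tested lncRNAs, or 12.4% without JN_9. The log2 difference of MSTRG.6672.4 was 4.63 (SE 0.65). MSTRG.6672.2 and MSTRG.6672.4 passed the thresholds of the study upwards, where 12% of all tested lncRNAs passed in either direction and 7.25% upwards. The summed signal overlapped, since MT_8 with 3.72 FPKM was under JN_7 and JN_8. Its log2 difference, MT_30 over JN_30, was 3.03 (SE 1.18) with all libraries and 1.15 (SE 0.64) without JN_9, and the ratio of mean FPKM was 4.49, or 2.99 without JN_9. MSTRG.6672.2 also overlapped between MT_30 and JN_30, at a log2 difference of 3.18 (SE 1.21), which moved between 1.91 (SE 1.14) without JN_9 and 4.72 without JN_7. The differences of MSTRG.6672.5 and MSTRG.6672.6 were 2.24 (SE 1.78) and -1.85 (SE 1.98), each resting on 1 library with a value above 0.

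The 4 comparisons share groups, so their counts do not stand apart from each other, and the passing of MSTRG.6672.4 is what chose PRP3. The isoforms are near-copies of each other, so they are not separate units in these counts either. The stage difference of MSTRG.6672.4 was smaller in MT72 than in JN18, by -2.59 on the log2 scale (MT72 minus JN18, SE 0.91). With JN_30 near 0 it moved with the pseudocount and was -4.96 with 0.01 FPKM and -0.12 with 1 FPKM. For the sum the stage differences of MT72 and JN18 differed by -0.56 (SE 1.67), and by 1.32 (SE 0.86) without JN_9, which turned the direction. Which material had the larger stage difference of the summed signal thus changed with JN_9.

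The scatter between replicates was wide at PRP3. The residual standard deviation on the log2 scale was 0.94 for MSTRG.6672.4, larger than that of 76.6% of the tested lncRNAs, whose median was 0.70. It was 1.86 for MSTRG.6672.2, 2.75 for MSTRG.6672.5, 3.04 for MSTRG.6672.6 and 1.82 for the sum, and 0.86 for the sum without JN_9.

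**Figure D4:**
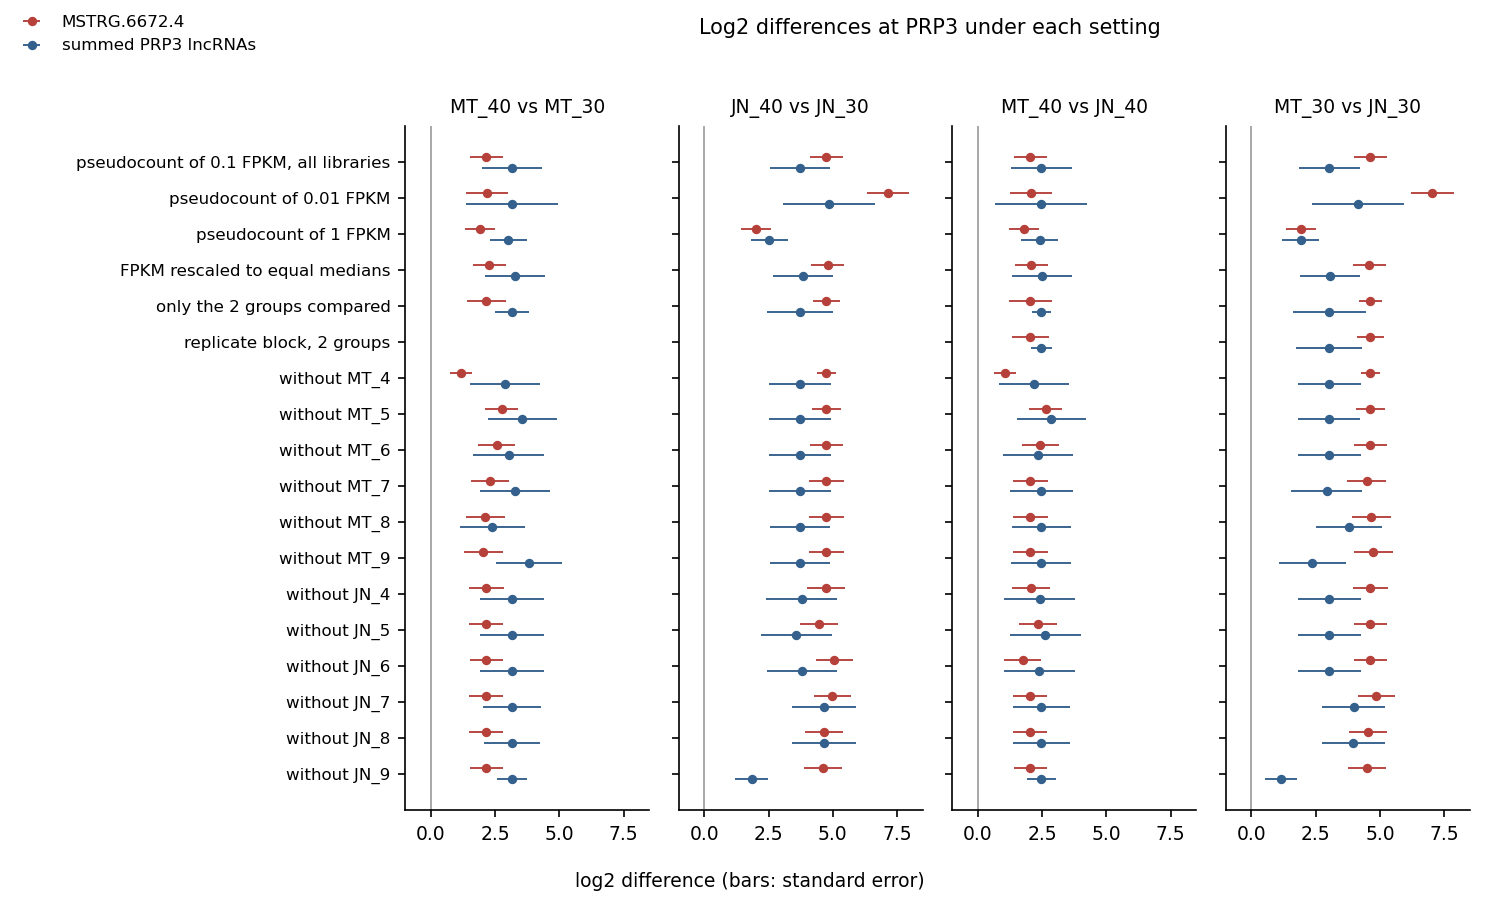
Log2 differences (horizontal axis, bars are standard errors) of MSTRG.6672.4 and of the summed PRP3 lncRNAs in the 4 comparisons under the settings of the analysis (rows). The alternative filters are not drawn. The values of MSTRG.6672.4 at JN_40 over JN_30 spread from 2.02 to 7.15 with the pseudocount, and those of the sum shift to 1.84 in JN_40 over JN_30 and to 1.15 in MT_30 over JN_30 without JN_9.

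Only 2 other lncRNAs lay within 100 kb of PRP3. MSTRG.6672.1 belongs to the same assembled gene and overlaps the PRP3 isoforms. It has 3 exons and 376 bases, is named after LOC100803102, and spans 12597646 to 12644554, or 46909 bases. It had 10.98, 27.7 and 0 FPKM in MT_40, against 8.14, 13.5 and 0 FPKM in MT_30. JN_40 had 0, 7.51 and 2.42 FPKM, against 0.110, 0 and 0 FPKM in JN_30. Within MT72, MSTRG.6672.1 was highest in MT_5 and MT_8, which had the lowest PRP3 sums of their groups. Within JN18 the order was the other way. There MSTRG.6672.1 was highest in JN_5 and JN_7, which had the highest PRP3 sums of their groups, at 21.8 and 4.87 FPKM. With MSTRG.6672.1 added, the 6 isoforms of the gene summed to 118 ± 34.7 FPKM in MT_40, 21.7 ± 5.09 FPKM in MT_30, 21.2 ± 7.13 FPKM in JN_40 and 3.27 ± 2.84 FPKM in JN_30 (SD, n = 3 each). On this sum, also chosen after the values had been seen, MT_30 at 17.2 to 27.2 FPKM no longer overlapped with JN_30 at 0 to 4.98 FPKM. Of all tested lncRNAs, 8.94% were likewise higher in every MT_30 library than in any JN_30 library, or 12.4% without JN_9. The log2 differences of this sum were 2.42 for MT_40 over MT_30, 3.92 for JN_40 over JN_30, 2.48 for MT_40 over JN_40 and 3.98 for MT_30 over JN_30 (SE 1.09 each). Its ratio of mean FPKM was 6.47 for JN_40 over JN_30, or 4.31 without JN_9, and 6.64 for MT_30 over JN_30, or 4.42 without JN_9.

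The second neighbour, MSTRG.6671.1, showed the opposite order of stages. It is an intergenic lncRNA of 1 exon and 792 bases on the minus strand, from 12662404 to 12663195, 17845 bases beyond PRP3. It was listed at 0 in the 6 libraries of 40 d. It had 58.8, 31.4 and 14.2 FPKM in MT_30, and in JN_30 it had 89.1 and 63.1 FPKM in JN_7 and JN_8 and 0 in JN_9. JN_9 was thus at 0 both for MSTRG.6671.1 and for the PRP3 isoforms, in contrast to JN_7 and JN_8. MSTRG.6671.1 fell in MT_40 relative to MT_30 at an adjusted p of 0.0309 (limma with Benjamini-Hochberg adjustment over 9142 lncRNAs). The fitted log2 difference of -8.22 (SE 1.81) has no fixed size, because MT_40 was at 0 and the pseudocount sets its level. The call was lost when any 1 of the 6 MT72 libraries was left out, up to an adjusted p of 0.114 without MT_8, while the log2 difference stayed between -8.75 and -7.73 whichever library was left out, and the adjusted p over the 18 alternatives ranged down to 1.29e-06. In JN_40 relative to JN_30 the adjusted p was 0.190, and 8.17e-07 without JN_9. The test of a different stage effect in MT72 and JN18 gave an adjusted p of 0.917, and that of MT_30 against JN_30 gave 0.686 (limma), so neither passed. The log2 difference of MSTRG.6671.1 in MT_30 over JN_30 was 1.85 (SE 1.81) with all libraries and -1.33 (SE 0.47) without JN_9, which turned its direction.

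**Figure D5:**
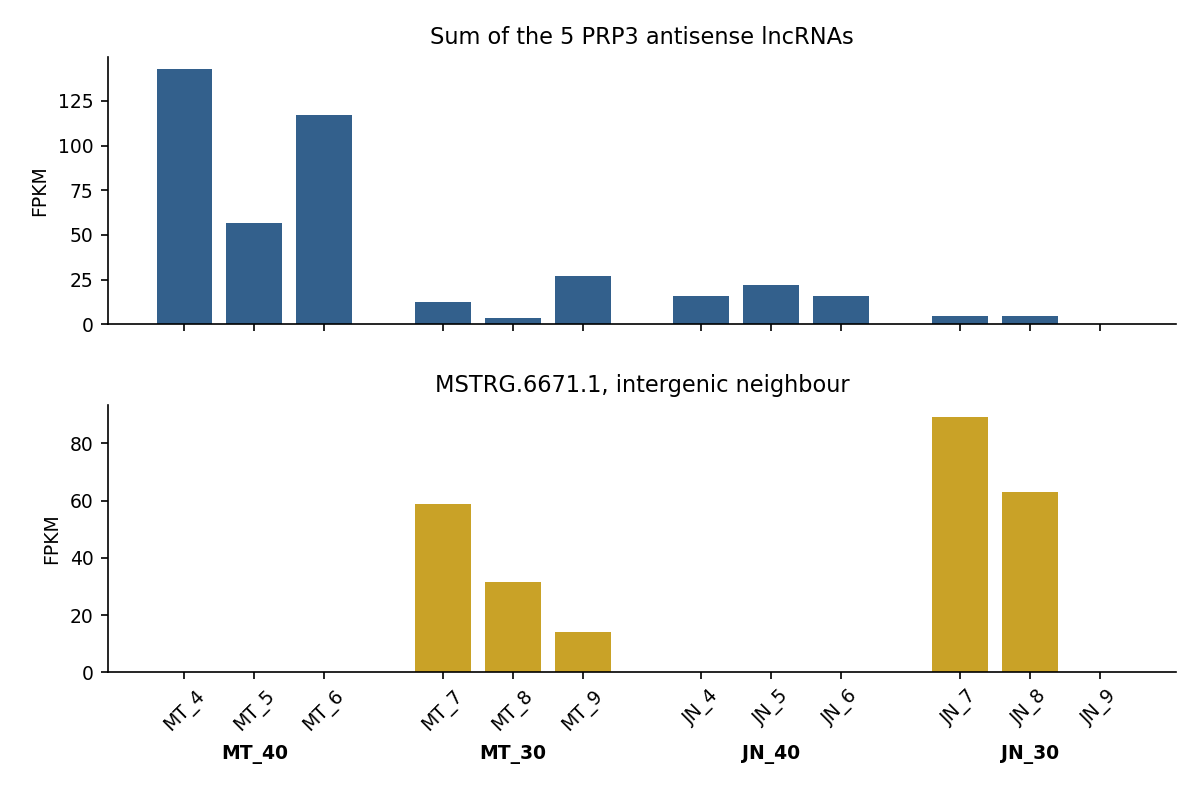
FPKM of the summed PRP3 lncRNAs and of the neighbouring intergenic lncRNA MSTRG.6671.1 in each library, with MT_40, MT_30, JN_40 and JN_30 from left to right. The PRP3 bars stand highest in MT_40, where MSTRG.6671.1 is at 0, and MSTRG.6671.1 appears only in 5 of the 6 libraries of 30 d.

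The lncRNAs whose levels followed MSTRG.6672.4 most closely over the 12 libraries lay on other chromosomes or, for MSTRG.53693.1, on an unplaced sequence. By Pearson correlation of log2(FPKM + 0.1) among 6205 lncRNAs that averaged 0.5 FPKM or more in some group, they were MSTRG.53693.1 (r = 0.904), MSTRG.44150.2 at LOC102667226 (r = 0.896), MSTRG.2945.1 at PSK3 (r = 0.893), MSTRG.12242.1 at LOC100807592 (r = 0.891) and MSTRG.25520.1 (r = 0.879). Each had its lowest group mean in JN_30, as MSTRG.6672.4 had. MSTRG.2945.1 averaged 0.747 ± 0.217 FPKM in MT_40, 0.603 ± 0.387 FPKM in MT_30, 0.493 ± 0.168 FPKM in JN_40 and 0.0687 ± 0.119 FPKM in JN_30 (SD, n = 3 each). PSK3 is named as a phytosulfokine gene, the source of a small peptide hormone of plant growth. The 12 points are grouped by stage and material and share libraries, and only 1 of the 5 lncRNAs kept its place by Spearman correlation, so this likeness is a description. The lncRNAs most like the summed PRP3 signal were none of these, and were led by MSTRG.25566.1, an antisense lncRNA at LOC100779523 (r = 0.947), which averaged 10.8 ± 0.554 FPKM in MT_40, 6.41 ± 0.405 FPKM in MT_30, 6.99 ± 1.11 FPKM in JN_40 and 4.47 ± 1.89 FPKM in JN_30 (SD, n = 3 each). By Spearman correlation 2 of the 5 most like the sum kept their place, and MSTRG.25566.1 had rho = 0.818. JN_9, where the sum was 0, was kept in these correlations, so this likeness is a description too.

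No lncRNA at another named cell wall gene could be set beside PRP3. The list of host symbols searched covered proline-rich proteins, extensins, expansins, glycine-rich proteins, arabinogalactan proteins, cellulose synthases and wall-modifying enzymes, and it matched only the 5 PRP3 transcripts among 4607 host names. Most hosts carry only a locus number in the table, so lncRNAs at unnamed cell wall genes may stand in it. A list for seed filling, because pods of these ages hold growing seeds, matched 8 lncRNAs, of which 5 were tested. The 5 lay at LEA-2, a late embryogenesis gene, and at VLXC and VSPA, named for a vegetative lipoxygenase and a vegetative storage protein, so that they stand for seed filling only loosely, and MSTRG.2631.1 at the glycinin gene A5A4B3 was not on the list. In MT_40 over MT_30, 1 of the 5 was lower and none higher at the adjusted p, against 2.5% of all tested lncRNAs called in either direction. It was MSTRG.44528.1 at VSPA, with a log2 difference of -3.44 (adjusted p = 0.0400, limma with Benjamini-Hochberg adjustment). This call held under only 5 of 17 alternatives, with adjusted p from 0.00596 to 0.178, and was lost among others without any 1 of MT_4, MT_5, MT_6, MT_7 and MT_8 and without any 1 JN_40 library. None was called in the other 3 comparisons, where 0.197% (JN_40 over JN_30), 0.153% (MT_40 over JN_40) and 0.886% (MT_30 over JN_30) of all tested lncRNAs were. These shares moved widely when 1 library was left out, as the calls over all tested lncRNAs then ranged over 0 to 101, 6 to 28 and 22 to 187, against 18, 14 and 81 with all libraries. At an unadjusted p of at most 0.05 limma gave 1, 0 and 1 of the 5 tested seed filling lncRNAs in JN_40 over JN_30, MT_40 over JN_40 and MT_30 over JN_30. They were MSTRG.44447.1 at VLXC (log2 difference 2.78) and MSTRG.44528.1 at VSPA (3.52), so both also passed the fold change limit of the study. At both limits 10.6%, 5.85% and 12% of all tested lncRNAs passed in the same order. The median log2 difference of the 5 was 0.66 for MT_40 over MT_30, 0.23 for JN_40 over JN_30, 0.05 for MT_40 over JN_40 and 0.01 for MT_30 over JN_30, beside -0.10, -0.08, -0.01 and -0.03 over all tested lncRNAs. The 3 lncRNAs at the glycinin gene GY1 were listed at 0 in all 12 libraries. The part of the seed share of the pod in the PRP3 differences was not tested.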

How the data were processed

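The authors trimmed the reads with Cutadapt, mapped them (the methods name HISAT2 and the submitters' processing notes TopHat2), assembled transcripts and estimated FPKM and read coverage per transcript with StringTie, all without versions or a genome build given in the sources used here. The deposited table holds FPKM and coverage signal for each of 12 libraries, and the CPC and CNCI coding potential scores computed by the authors. It holds no read counts, so the test for counts named in the methods was replaced by limma 3.58.1 in R 4.3.3 on log2(FPKM + 0.1), with a variance trend, 1 term per group and Benjamini-Hochberg adjustment, over the 9142 lncRNAs that exceeded 0.1 FPKM in 3 or more libraries. The ratio of coverage to FPKM gave the aligned bases of each library, and coverage times length over 150 the estimated reads, which cover counting error only. The table therefore gives the depth only by this route.

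Libraries were grouped by the sample labels. The study calls them biological replicates, and no further detail on separate plants is given, so p-values measure the spread between these libraries. No pair of libraries held identical values. On simulated data of 9142 lncRNAs for MT_40 over MT_30 the fit recovered 108 of 200 changed lncRNAs, with 8 false calls among the unchanged ones. The simulation used normal noise, without the zeros and changing isoforms seen at PRP3.

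Named lncRNAs were those at PRP3, those within 100 kb, the 5 most correlated with MSTRG.6672.4, and members of the cell wall and seed filling lists. The members and lists were chosen with earlier results of these data known. The likeness to the summed signal was added after the values had been seen. Alternatives covered pseudocounts of 0.01 and 1 FPKM, no filter and a filter at 0.5 FPKM, fits of the compared groups alone, rescaled FPKM, leaving out each library and a replicate block. Python 3.11.15, numpy 2.4.6, pandas 2.3.3 and matplotlib 3.10.9 were used for descriptions and figures.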

Additional observations from a re-analysis of the deposited data

How the results depend on the processing

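MSTRG.6672.4 and the summed PRP3 lncRNAs kept the direction of their 4 log2 differences under all 16 to 19 alternatives run for each. For MSTRG.6672.4 this is no test, because it was chosen for passing in all 4 comparisons and its groups did not overlap in any. The sum contains MSTRG.6672.4 and overlapped only in MT_30 over JN_30, so its kept direction is description too. The size of the differences depended on the pseudocount where JN_30 lay under it. With 0.01 and 1 FPKM, MSTRG.6672.4 differed by 7.15 and 2.02 in JN_40 over JN_30, by 7.03 and 1.92 in MT_30 over JN_30, and by -4.96 and -0.12 for the difference of the stage effect. Leaving out 1 library at a time gave MSTRG.6672.4 differences of 1.18 to 2.76 in MT_40 over MT_30, 4.47 to 5.06 in JN_40 over JN_30, 1.06 to 2.64 in MT_40 over JN_40, 4.48 to 4.86 in MT_30 over JN_30 and -3.57 to -1.99 for the difference of the stage effect, with the lowest values of MT_40 over MT_30 and over JN_40 without MT_4. The sum gave 2.40 to 3.82, 1.84 to 4.66, 2.20 to 2.86, 1.15 to 3.97 and -1.50 to 1.32 in the same order. The last of these turned its direction without JN_9 (1.32), without MT_9 (0.10) and with a pseudocount of 1 FPKM (0.50). MSTRG.6672.6, at -1.0 to 0.81 in JN_40 over JN_30 and -0.25 to 1.84 in MT_40 over JN_40 without 1 library, turned to 0.81 and to -0.25 without JN_5 or without JN_6. Its ranges cover 9 removals only. Without MT_5, JN_4 or JN_8, the only libraries where it was above 0, it failed the filter and was not fitted. The cause of these shifts was not tested, beyond the pseudocount itself. MSTRG.6671.1 kept its call in MT_40 over MT_30 under 12 of 18 alternatives. The 5 lncRNAs most like MSTRG.6672.4 kept 1 member by Spearman correlation, 4 with a pseudocount of 0.01 FPKM and 1 with 1 FPKM.

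Same-numbered libraries of MT72 and JN18 showed no strong joint deviation (r = -0.160 to 0.0136 over 6 pairs, and 0 of 6 MT72 libraries correlated best with their own number). These correlations cannot exclude a weaker pairing by number. A fit of the 2 groups with the replicate block left MSTRG.6672.4 at 2.04 (SE 0.72) in MT_40 over JN_40 and 4.63 (SE 0.52) in MT_30 over JN_30, and the sum at 2.47 and 3.03. It left 521 and 756 lncRNAs past the unadjusted thresholds, against 569 and 867 in the same fit of 2 groups without the block and 535 and 1095 with all 4 groups, and 0 and 6 at the adjusted p, against 1 and 11 without the block and 14 and 81 with all 4 groups. With a pseudocount of 1 FPKM the unadjusted thresholds were passed by 290, 108, 88 and 245 lncRNAs in MT_40 over MT_30, JN_40 over JN_30, MT_40 over JN_40 and MT_30 over JN_30, against 1297, 972, 535 and 1095. With the filter at 0.5 FPKM, 639 passed in JN_40 over JN_30 and 353 in MT_40 over JN_40, and with only the 2 groups in the fit 619 passed in JN_40 over JN_30. The adjusted p was met by 229 lncRNAs in MT_40 over MT_30, against 143 with a pseudocount of 0.01 FPKM, 644 with only the 2 groups in the fit and 63 to 473 without 1 library.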
